A study of Mus musculus with 12 samples.

Results

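Dimethylation of lysine 4 of histone H3 (H3K4me2) was profiled by chromatin immunoprecipitation and sequencing (ChIP-seq) in C2C12 cells, an established mouse myoblast line, with and without inhibition of the demethylase LSD1. Members were chosen by label: they are all peaks of the deposited H3K4me2 peak lists of the S2101 sample and the Control sample, 45891 of the 134900 peaks in the 6 peak lists of the series. The Control cells received vehicle and the treated cells the LSD1 inhibitor S2101 at 10 µM. Both were kept for 48 h, to day 2, in differentiation medium with 2% horse serum, and the labels call them differentiating myoblasts. The antibody was the same for both H3K4me2 samples, and both belong to experiment 1, as do the H3K4me1 samples. The H3K4me3 samples used below belong to experiment 2. There was 1 library per mark and treatment, so every difference below describes a pair of lists, with no replicate check and no p-value.

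H3K4 is methylated in steps, and H3K4me2 is the middle state between H3K4me1, found at enhancers and beside promoters, and H3K4me3, the mark of active promoters. LSD1 (Kdm1a) is a flavin-dependent oxidase that removes methyl groups from H3K4me2 and H3K4me1 but cannot act on H3K4me3. S2101 is a derivative of the LSD1 inhibitor tranylcypromine. In H3K4me2 profiles of many cell types, domains surround active promoters and also mark enhancers. The identity of the cells could not be checked against muscle genes, because no gene annotation of the build of the files (mm9) was used here, so regions are named by position and no genes or sequences are given.

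The Control list held 21447 H3K4me2 peaks and the S2101 list 24444. Depth is unknown, since the lists carry no read counts. The narrowest Control peak was 295 bp and the narrowest S2101 peak 115 bp, and 2254 S2101 peaks (9.22%) were narrower than any Control peak. The smallest widths lay closer together in the H3K4me1 lists (149 bp with Control, 162 bp with S2101) and in the H3K4me3 lists (224 and 209 bp). The smallest width, the median width and the splitting described below all differed between the H3K4me2 libraries, and the part of library depth, enrichment and fragment length in them was not tested.

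Most of the H3K4me2 length that was not listed with S2101 came off the outer edges of Control peaks that were still present. Of the 34.1 Mb under Control peaks, 15.5 Mb were covered by S2101 peaks and 18.6 Mb were not. Outer edges, meaning the bases beyond the outermost S2101 peaks within a Control peak, accounted for 11.4 Mb, or 61.5% of the uncovered length (SD over the 19 autosomes 1.83, range 59.7 to 65.6%). Control peaks without any S2101 peak held 5.18 Mb, or 27.9%. Inner gaps, between neighbouring S2101 peaks of the same Control peak, held 1.97 Mb, or 10.6%. Over all peaks, outer edges thus held more of the uncovered length than absent peaks did, and inner gaps held the least. The order was not the same everywhere. On chromosome X outer edges held 29.1% of the uncovered length, and in Control peaks not over H3K4me3 the outer edges were 21.9% of the Control length and absent peaks 60.9%. Autosomes are not replicates, and their SD only describes how even the pattern was along the genome.

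Little was listed with S2101 outside the Control peaks: 964 of 24444 S2101 peaks (3.94%) overlapped no Control peak, and 22405 (91.7%) lay wholly within 1.

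The widths of the 2 lists were shifted against each other over almost their whole range. With Control, 0.662% of peaks were narrower than 500 bp, compared with 43.1% with S2101. Peaks of 2000 bp or more numbered 5275 with Control and 274 with S2101. The 99th percentile was 5073 bp with Control and 2049 bp with S2101, so the upper tail was shortened as well as the median.

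**Figure D1:**
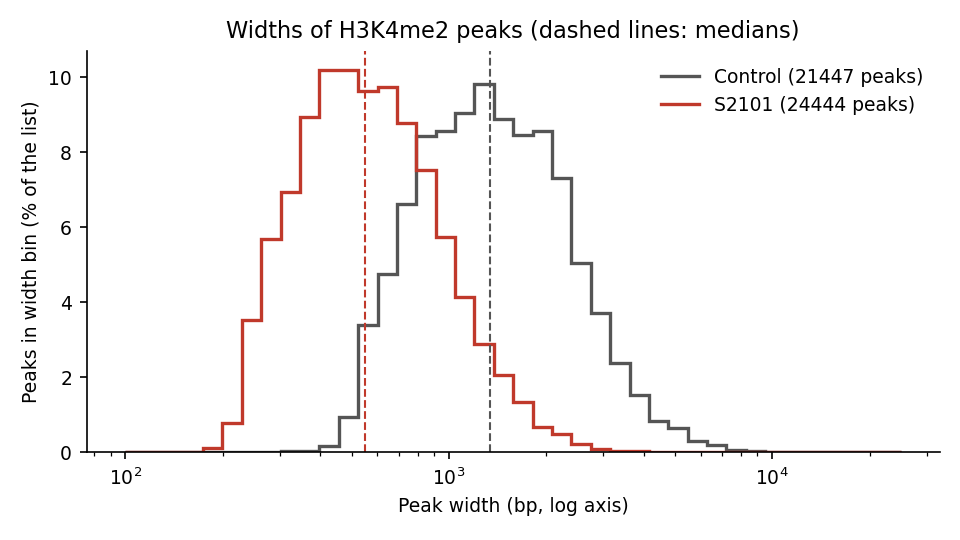
Widths of all H3K4me2 peaks with Control and with S2101, as the percentage of each list in bins of equal size on a log axis; dashed lines mark the medians. The S2101 distribution lies to the left of the Control distribution, and 43.1% of its peaks are narrower than 500 bp against 0.662% of the Control peaks.

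Narrowing was general among the 10188 Control peaks that overlapped a single S2101 peak which itself overlapped no other Control peak. The S2101 peak was narrower in 10145 of them (99.6%), and under 0.5 times the Control width in 5026 (49.3%). The median Control width in this set was 1293 bp (quartiles 997 and 1692) and the median S2101 width 599 bp (quartiles 427 and 854). Wider Control peaks had wider S2101 peaks on the whole (Spearman's rho 0.59 across the 10188 pairs, which are not independent and share a library on each side).

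The single S2101 peak usually lay inside the Control peak. It was wholly inside in 9607 pairs (94.3%, 95% Wilson interval 93.8 to 94.7%) and contained the Control midpoint in 8709 (85.5%, 84.8 to 86.2%). A peak inside the Control peak and at least 0.5 times as wide must contain that midpoint wherever it lies. Among the 5026 pairs with a ratio under 0.5, where this does not hold, 3583 contained the midpoint (71.3%, 70.0 to 72.5%). Such a shorter interval can also contain the midpoint by placement alone, and that part was not measured. Wilson intervals here and below cover counting error only, and neighbouring peaks are not independent. The trim had a median of 279 bp at the edge of lower coordinate and 282 bp at the edge of higher coordinate, so neither direction along the chromosome was favoured. Within a pair the shorter trim had a median of 189 bp and the longer 402 bp, a difference that is partly built into the sorting. Lower and higher trims were almost uncorrelated across pairs (rho 0.05). In 612 pairs (6.01%) a single edge took 90% or more of the trimmed length.

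Splitting of a Control peak into several S2101 peaks affected 5670 Control peaks, 26.4% of all 21447 and 35.6% of the 15905 that kept at least 1 S2101 peak (95% Wilson interval 34.9 to 36.4%). The number of pieces reached 13. There were 950 Control peaks with 3 pieces, 256 with 4, 82 with 5 and 50 with 6 or more. Splitting rose with the width of the Control peak. Of 6485 peaks under 1000 bp, 1.08% were split, of 3850 peaks of 1500 to 1999 bp, 34.5% (33.0 to 36.0%), and of 3696 peaks of 2000 to 2999 bp, 65.1% (63.6 to 66.6%). At 6000 bp or more, 96 of 98 Control peaks were split, into a mean of 5.22 pieces. The share of length kept was 23.3% under 1000 bp, 52.3% at 2000 to 2999 bp and 63.3% at 6000 bp or more. Up to 2999 bp this rise went with fewer absent peaks: among Control peaks with an S2101 peak, the share was 53.6% under 1000 bp, 51.3% at 1000 to 1499 bp and 53.5% at 2000 to 2999 bp. It was 56.5% at 4000 to 5999 bp and 63.3% at 6000 bp or more.

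**Figure D2:**
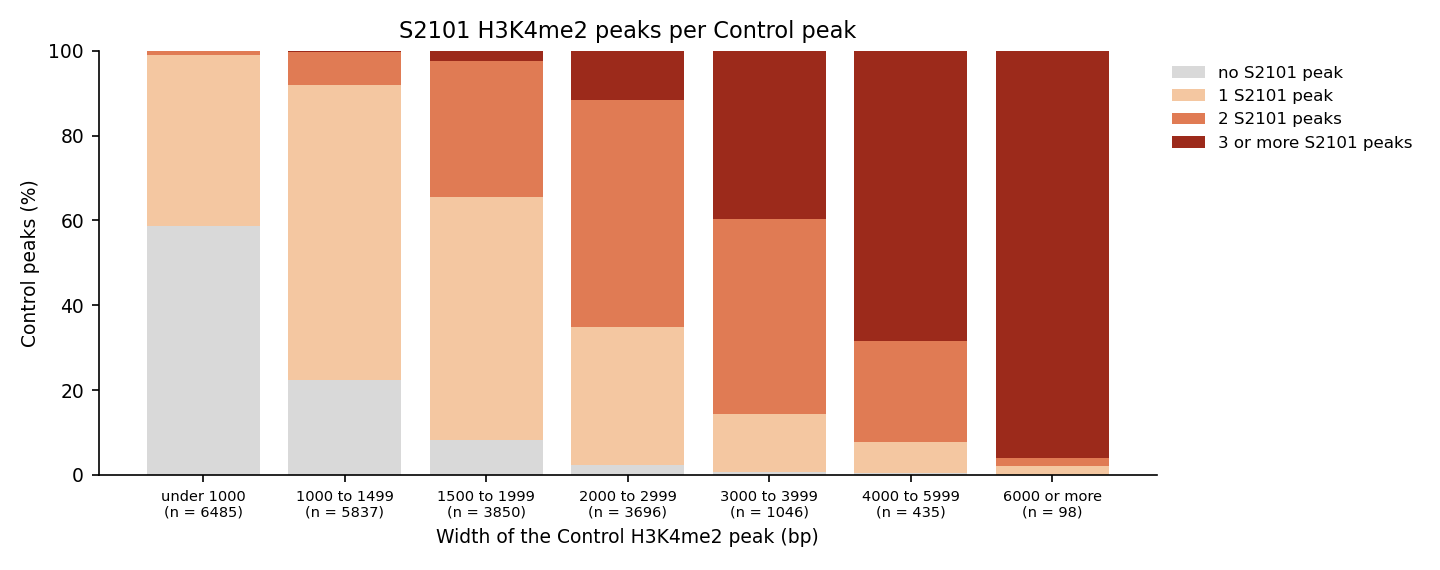
Control H3K4me2 peaks by width class (horizontal axis, bp), stacked by the percentage that overlap no, 1, 2, or 3 or more S2101 H3K4me2 peaks. Peaks without an S2101 peak make up 58.8% of the class under 1000 bp, and split peaks make up 65.1% at 2000 to 2999 bp.

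The longest piece grew less than the domain. Its median was 415 bp in Control peaks under 1000 bp, 834 bp at 2000 to 2999 bp and 1703 bp at 6000 bp or more. The trim per side had a median of 185 bp in the first of these classes, 395 bp in the next and 650 bp in the last. Single-counterpart pairs of 1000 to 1499 bp had a median width ratio (S2101 over Control) of 0.502, and those of 2000 to 2999 bp 0.456. Only unsplit peaks enter these ratios, and the pooled values hide opposite trends by score. At or below the median score of the width class, the ratio was 0.404 at 1000 to 1499 bp and 0.287 at 3000 to 3999 bp. Above that median it was 0.555 and 0.636.

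Many splits were narrow breaks, and the count of split peaks depends on how near 2 peaks may lie before they count as separate. The 7631 inner gaps had a median of 166 bp (quartiles 59 and 369, largest 3442). Gaps of 50 bp or less numbered 1689 (22.1%), and those of 200 bp or less 4219 (55.3%). With S2101 peaks joined across gaps of up to 100, 200, 500 and 1000 bp, the split share was 19.0, 14.3, 5.15 and 0.891%. With peaks of both lists joined across up to 500 bp it was 13.7%, and with scores of 200 or more in both lists 16.9%. That score cut left 16727 of 21447 Control peaks and 15646 of 24444 S2101 peaks. With each S2101 peak extended by 90 bp at both ends, the split share was 15.9%. That extension brings the smallest S2101 width up to the smallest Control width. Only the minimum is matched in this way: the 1st percentiles of the deposited widths were 515 bp with Control and 229 bp with S2101. The extension also raised the median width ratio of single-counterpart pairs from 0.503 to 0.684, which is still below 1.

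Control peaks split in 2 gave pieces of moderately unequal length. In these 4332 peaks, with a median width of 2133.5 bp, the longer piece had a median of 730 bp, the shorter 416 bp and the gap 190 bp. The outer edges together took 622 bp. The shorter piece was at least 0.5 times the longer in 2909 cases (67.2%, 65.7 to 68.5%). The midpoint of the gap fell in the middle 20% of the Control peak in 2153 cases (49.7%). A gap between 2 pieces cannot lie at an end of the peak, so part of this central position follows from the definition. That part was not measured.

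The gaps lay under H3K4me3. Among the 4018 such peaks with exactly 1 Control H3K4me3 peak, the gap was wholly under it in 3803 (94.6%, 93.9 to 95.3%) and both pieces overlapped it in 3802 (94.6%). Over all 4332 peaks split in 2, Control H3K4me3 covered the whole gap in 3850 (88.9%) and S2101 H3K4me3 in 4018 (92.8%). The S2101 count equals that of the peaks with 1 Control H3K4me3 peak but is not of the same peaks by definition. The gap contained the midpoint of the Control H3K4me3 peak in 1189 of 4018 cases (29.6%, 28.2 to 31.0%), and a piece contained it in 2371 (59.0%, 57.5 to 60.5%). The pieces were longer than the gaps, 5094 kb against 1082 kb in these 4018 peaks. Per 100 kb, the gaps held 109.9 H3K4me3 midpoints and the pieces 46.5. The break in H3K4me2 was thus inside the H3K4me3 domain in most cases. Gaps lie between the pieces, away from the peak ends, which by itself can raise their share of central midpoints. Position was not matched, so the higher density of midpoints in the gaps is descriptive only.

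Coverage along the Control peaks was higher at the centre than at the ends. Any shorter interval inside a longer one covers its centre more often than its ends, so part of this profile follows from narrowing alone, and that part was not measured. Each of the 15905 Control peaks with an S2101 peak was cut into 20 equal parts. The middle 4 parts were covered at 78.7% on average and the outer 4, 2 at each end, at 11.4%, a difference of 67.2 percentage points (range over autosomes 63.5 to 70.5). The terminal parts were at 6.20 and 6.41%. With 1 S2101 peak, coverage reached 84.7% at the centre. With 2 it had maxima of 76.5 and 77.6% on either side of a centre at 67.5%. With 4 or more it stayed between 64.2 and 73.9% over the middle 16 parts, so coverage in strongly split domains was nearly even outside the ends.

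**Figure D3:**
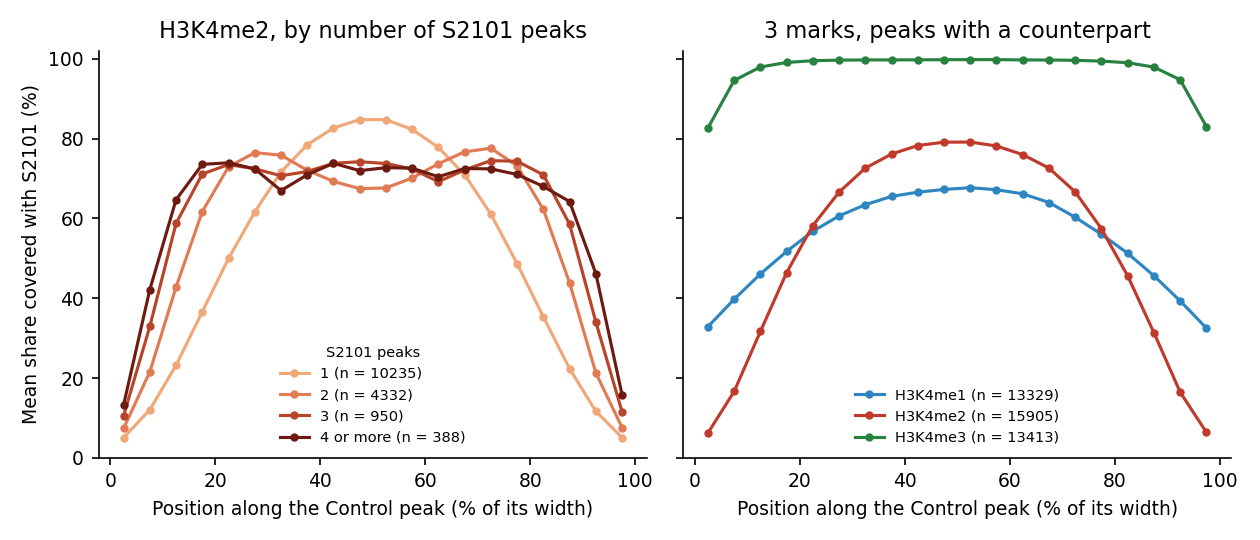
Mean share of Control peaks covered by S2101 peaks of the same mark (vertical axis, %) along 20 equal parts of the Control peak; left, H3K4me2 by number of S2101 peaks, right, the 3 marks for Control peaks with at least 1 S2101 peak. The H3K4me2 curve is at 78.7% over its middle 4 parts and 11.4% over its outer 4.

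What was kept lay mostly under H3K4me3. Of the retained bases, 89.1% were under a Control H3K4me3 peak, compared with 50.2% of the outer edges and 23.0% of the peaks without an S2101 peak. Over all Control H3K4me2 bases the share was 66.0%. Inner gaps were like the retained bases in this respect, at 89.1%. With the S2101 H3K4me3 list the shares were 93.1% of retained bases, 58.1% of outer edges, 27.0% of absent peaks and 92.0% of inner gaps. It was 71.3% over all Control H3K4me2 bases. By this measure outer edges stood well below the retained part, and inner gaps close to it. H3K4me1 was laid out differently: Control H3K4me1 peaks covered 36.9% of the bases in peaks without an S2101 peak, 18.6% of outer edges, 15.4% of retained bases and 6.67% of inner gaps. Over all Control H3K4me2 bases they covered 19.3%, close to the share at outer edges. H3K4me3 comes from the other experiment, so mark and experiment cannot be told apart in these comparisons.

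The relation to H3K4me3 was also present at a fixed distance from the edge of the Control H3K4me2 peak. In the 14406 Control peaks that were partly under H3K4me3, 62.3% of the bases under it were retained and 12.8% of the others (difference 49.6 percentage points, range over autosomes 39.1 to 58.7). Part of that difference goes with position, as bases outside H3K4me3 are mostly near the ends. Over all Control peaks with an S2101 peak, bases 100 to 249 bp from the nearer edge were retained at 35.5% under H3K4me3 and 15.7% outside it. At 250 to 499 bp the shares were 67.7 and 38.0%, and at 1000 bp or more 71.5 and 36.7%. The difference was thus present in the interior of wide peaks as well as near the ends. These shares pool peaks with and without H3K4me3, so the bases outside it include peaks wholly outside it. Over the whole Control list, peaks not over H3K4me3 had a median score of 177, against 687 for those over it. Score was not matched here. For Control H3K4me1 the corresponding shares were closer to each other, with 56.4% under it and 61.3% outside it at 250 to 499 bp, and 68.3 and 68.7% at 1000 bp or more.

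**Figure D4:**
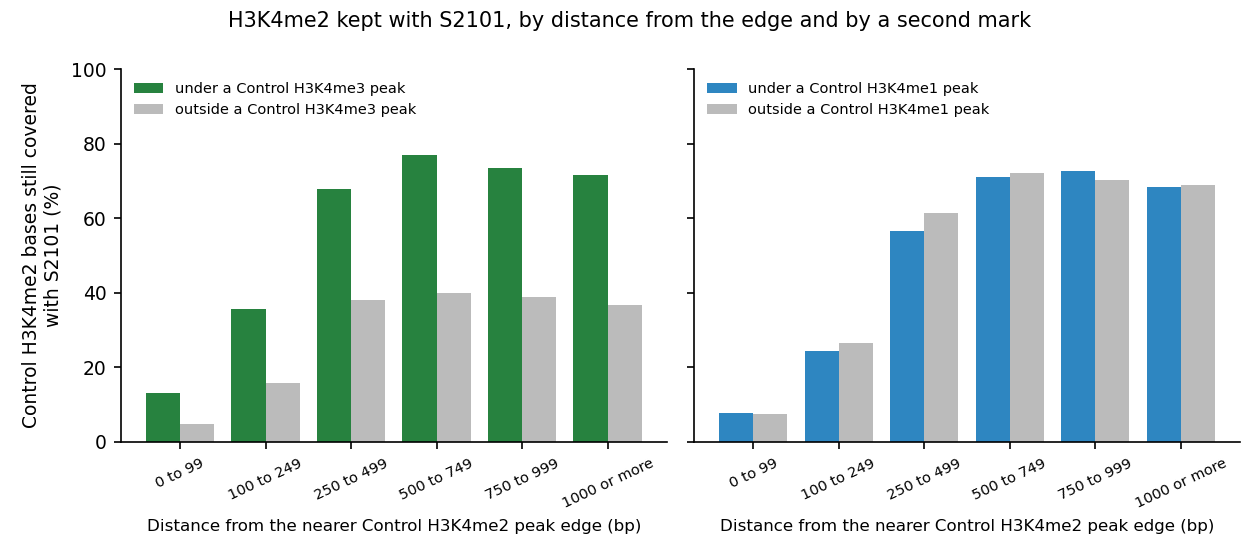
Share of Control H3K4me2 bases covered with S2101 (vertical axis, %), by distance from the nearer edge of the Control H3K4me2 peak (bp), for bases under or outside a Control H3K4me3 peak (left) and a Control H3K4me1 peak (right), in Control peaks with at least 1 S2101 peak. At 250 to 499 bp the bars are at 67.7 and 38.0% for H3K4me3 and at 56.4 and 61.3% for H3K4me1.

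The S2101 H3K4me2 peak was usually contained in H3K4me3, whereas the Control peak was not. In 8294 single-counterpart pairs with exactly 1 Control H3K4me3 peak, the S2101 H3K4me2 peak was wholly within it in 6431 (77.5%) and the Control H3K4me2 peak in 593 (7.15%). Median widths were 659 bp for S2101 H3K4me2, 1356.5 bp for Control H3K4me2 and 1752 bp for H3K4me3. A narrower interval inside the Control peak is contained more often for that reason alone, and that part was not measured. Control H3K4me2 covered 91.2% of the bases of these H3K4me3 peaks and S2101 H3K4me2 54.8%. Where the H3K4me3 midpoint was 50 bp or more from the Control H3K4me2 midpoint, the S2101 midpoint lay on the same side in 4716 of 6953 pairs (67.8%, 66.7 to 68.9%), displaced by a median of 59.5 bp. The midpoints of H3K4me2 and H3K4me3 did not coincide for all that, with a median distance of 312 bp with S2101 and 289.5 bp with Control, and the S2101 midpoint was the nearer in 55.7% of pairs.

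Control peaks outside H3K4me3 were lost, or trimmed further, more often than those over it. Loss affected 5542 Control peaks (25.8% of all). Among 4138 Control peaks with H3K4me1 and no H3K4me3, an enhancer-like combination, 66.4% (65.0 to 67.9%) had no S2101 peak, 4.25% were split, and pairs with a single counterpart had a median ratio of 0.398. Among 1902 peaks with neither mark, 68.1% had no S2101 peak. Among 10221 peaks with H3K4me3 and no H3K4me1, 12.7% had none, 29.9% were split, and the ratio was 0.504. Among 5186 peaks with both other marks, 3.82% had none and 46.4% (45.1 to 47.8%) were split, and the ratio was 0.555. These classes also differ in Control width, with medians of 947, 772, 1441 and 1986 bp in the order given, and in median score, 192, 154, 573 and 975. The score is the authors' own value and ranks peaks within a list only.

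At equal width a contrast remained. Of Control peaks of 1000 to 1499 bp, 426 of 4230 over H3K4me3 (10.1%, 9.20 to 11.0%) had no S2101 peak, and 886 of 1607 outside it (55.1%, 52.7 to 57.6%). At 2000 to 2999 bp the shares were 1.41 and 24.7%. Score moved with these shares too: at 1000 to 1499 bp, 41.0% of peaks at or below the median score of the class had no S2101 peak and 3.91% of those above it. On the lower side of that median, 22.7% (20.7 to 24.9%) of 1474 peaks over H3K4me3 and 59.7% (57.2 to 62.2%) of 1445 outside it had none. On the upper side it was 3.30% (2.70 to 4.04%) of 2756 and 14.2% (9.65 to 20.4%) of 162. Within each side the median scores were still higher over H3K4me3, 337.5 against 257 and 579 against 489.7, so score was matched only roughly. At 2000 to 2999 bp the lower side had 2.87% of 1706 over H3K4me3 and 26.1% of 142 outside it without an S2101 peak. On the upper side of that class only 8 peaks lay outside H3K4me3, too few for a comparison, and 0 of them had no S2101 peak. Splitting at 2000 to 2999 bp occurred in 66.4% of peaks over H3K4me3 and 35.3% (28.1 to 43.3%) of the 150 peaks outside it.

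Score and width went together (rho 0.82 across the single-counterpart pairs). With the Control list ranked by score and cut into 10 groups of equal size, 82.3% of peaks in the lowest group had no S2101 peak and 0.233% were split. In the highest group these shares were 0.0466 and 75.6%. The retained length was 8.95% in the lowest group and 62.1% in the highest. At 2000 to 2999 bp, splitting affected 61.2% (59.0 to 63.4%) of Control peaks at or below the median score of that width class and 69.0% (66.9 to 71.1%) of those above it. Their single-counterpart width ratios were 0.327 and 0.612. In that width class, then, the higher-scoring peaks were narrowed less and were split somewhat more often.

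The 5 Control peaks with the most S2101 pieces were wide domains, and H3K4me3 covered most of each. On chromosome 6 (52169147 to 52185482, 16336 bp) 13 S2101 peaks of 365 to 2128 bp covered 86.6% of the domain, and 7 of its 12 inner gaps were shorter than 50 bp. On chromosome 15 (85502193 to 85520071, 17879 bp) 12 pieces covered 76.3%, with a median gap of 51 bp. The other domain on chromosome 15 (102783239 to 102805133, 21895 bp) had 11 pieces and wider breaks, with a median gap of 391 bp and a largest of 1416 bp. Domains on chromosome 3 (88418913 to 88431156, 12244 bp) and chromosome 13 (63342158 to 63353318, 11161 bp) had 10 pieces each, with 67.6 and 64.6% covered, and were the widest of 3 such peaks. S2101 H3K4me3 peaks covered between 78.8 and 94.0% of the 5 domains. All 5 have a Control score of exactly 3100, as do 170 Control peaks in all, so the score does not rank them.

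The 5 widest single breaks had H3K4me3 over a varying share of their length. The largest inner gap, on chromosome 1 (185862237 to 185865678, 3442 bp), sat within a Control peak of 8327 bp with 5 S2101 peaks. Control H3K4me3 covered 3432 bp of it and S2101 H3K4me3 all of it. The next, on chromosome 18 (69755603 to 69758571, 2969 bp), had 2012 bp under S2101 H3K4me3, and those on chromosome 8 (24250098 to 24252854, 2757 bp) and chromosome 7 (149658774 to 149661372, 2599 bp) had 844 and 1631 bp. In the gap on chromosome 6 (108612733 to 108615238, 2506 bp) S2101 H3K4me3 was complete. H3K4me3 was thus listed with S2101 over the whole of 2 of these gaps and over part of the other 3.

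The strongest narrowing of wide Control peaks left a short remnant at varying positions. The peak on chromosome 7 (52122414 to 52126284, 3871 bp) kept 299 bp, 0.0772 times its width. On chromosome 1, a peak of 5014 bp (20660652 to 20665665) kept 441 bp almost at its centre, trimmed by 2242 and 2331 bp, although H3K4me3 covered 5000 bp of it with Control and 4885 bp with S2101. The other peak on chromosome 1 (170359242 to 170362340, 3099 bp) kept 272 bp and lay under H3K4me3 over its full width in both treatments. The remnant of 323 bp on chromosome 9 (107506129 to 107509765, 3637 bp) was also under Control H3K4me3. On chromosome 2 (122523197 to 122529043, 5847 bp) the remnant of 474 bp was at the opposite end from the H3K4me3 peak, with 97 bp trimmed on its own side and 5276 bp on the other, and 0 bp of it under Control H3K4me3. Full H3K4me3 was therefore found over some of the most narrowed H3K4me2 peaks.

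A few wide Control peaks were kept nearly whole by a single S2101 peak. On chromosome 8 (86261209 to 86265967, 4759 bp, score 2724.99) the S2101 peak was 4764 bp wide, and on chromosome 1 (180457312 to 180461317, 4006 bp) it was 3837 bp. Peaks on chromosome 15 (78672433 to 78676957) and again chromosome 8 (83401476 to 83405337) had ratios of 0.903 and 0.902. The widest of this kind, on chromosome 17 (39979847 to 39985866, 6020 bp), had a ratio of 0.972 but a Control score of only 609.52, no Control H3K4me3, and S2101 H3K4me3 over 5967 bp. It holds the widest S2101 H3K4me2 peak, 5849 bp. Peaks in repeats were not filtered. The S2101 peak was wider than the Control peak in 43 of 10188 pairs, with ratios up to 1.34.

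**Figure D5:**
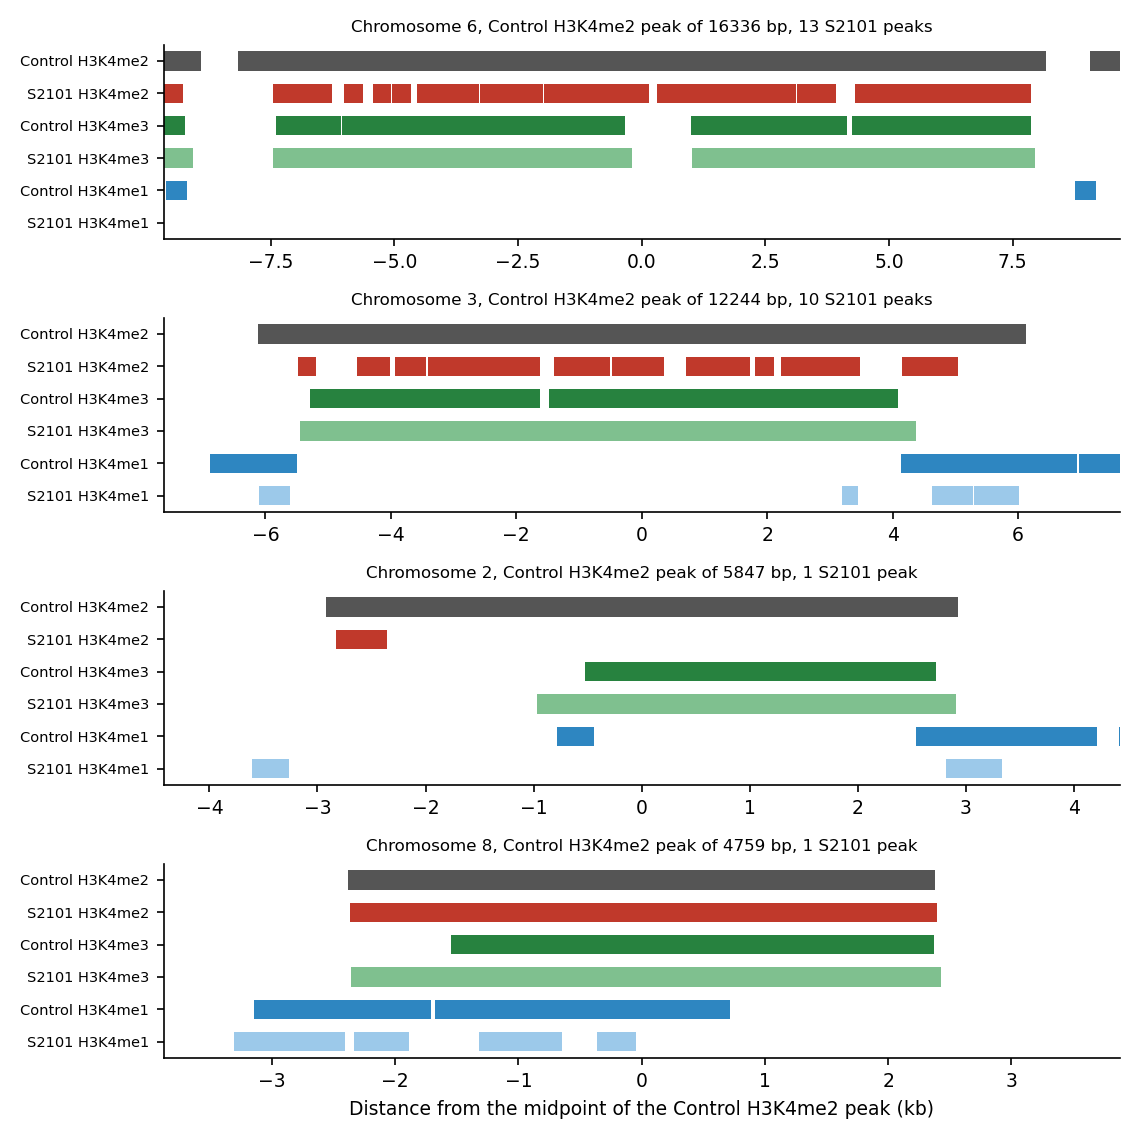
Peaks of all 6 lists around 4 Control H3K4me2 peaks, as bars along the distance from the midpoint of the Control peak (kb): the domain with 13 S2101 peaks on chromosome 6, the one with 10 on chromosome 3, the narrowed peak of 5847 bp on chromosome 2 and the kept peak of 4759 bp on chromosome 8. On chromosome 2 the remaining S2101 peak of 474 bp lies outside H3K4me3.

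The 5 widest Control peaks with no S2101 H3K4me2 at all were on chromosome 1 (194676835 to 194681631, 4797 bp), chromosome 10 (60276425 to 60280575, 4151 bp), chromosome 3 (19543615 to 19547509, 3895 bp), chromosome 18 (75535267 to 75539012, 3746 bp) and chromosome 2 (84476133 to 84479839, 3707 bp). With S2101, H3K4me1 covered 2429 bp of the region on chromosome 10 and H3K4me3 838 bp, against 3308 and 0 bp with Control. The region on chromosome 3 had no H3K4me1 in either treatment, and H3K4me3 covered 2255 bp of it with Control and 1730 bp with S2101. H3K4me1, H3K4me3 or both were still listed with S2101 in each of the 5.

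On chromosome X, H3K4me2 peaks were absent with S2101 more often than on the autosomes. Of its 487 Control peaks, 315 had no S2101 peak (64.7%, 60.3 to 68.8%), compared with 24.9% on the autosomes together and at most 29.4% on any autosome. Split peaks made up 3.90% there and 27.0% on the autosomes, and 17.2% of the Control length was retained, against 37.9 to 53.0% on single autosomes. Control peaks on X were narrower (median 949 bp, autosomes 1355 bp) and had lower scores (median 218 and 499). Among Control peaks with scores of 219.51 to 486.16, the 25% of the list just below its median, 100 of 172 peaks on X had no S2101 peak (58.1%, 50.7 to 65.3%) and 25.8% of autosomal ones. With scores of 486.16 to 896.37 it was 18 of 59 (30.5%, 20.3 to 43.1%) and 3.45%. In the lowest 25% of the list by score the shares were closer, 79.8% (74.3 to 84.3%) on X and 72.1% on the autosomes, and in the highest 25% none of 9 peaks on X and 0.336% of autosomal ones had no S2101 peak. H3K4me1 also differed on X: 66 of its 77 Control peaks there had no S2101 peak (85.7%, 76.2 to 91.8%), against 67.0% on the autosomes, and the covered length ratio was 0.235 against 0.347. Control H3K4me1 peaks on X were also narrower (median 460 bp, autosomes 535 bp) and had lower scores (median 140 and 183), and neither was matched. The covered length of H3K4me3 had a ratio (S2101 over Control) of 1.10 on X and 1.10 on the autosomes. Among the autosomes, the retained share was lowest on chromosome 7 and highest on chromosome 15.

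Over all peaks, H3K4me2 had the highest share of split peaks of the 3 marks, but its Control peaks were wider than those of H3K4me1 (medians 1342 and 535 bp). The uncovered Control length of H3K4me1 lay mainly in peaks without an S2101 peak (71.5%), with 25.5% at outer edges and 3.02% in inner gaps. For H3K4me3 only 0.672 Mb of 24.4 Mb was uncovered. Of Control peaks that kept a counterpart, 14.7% were split for H3K4me1 (14.2 to 15.4%) and 1.67% for H3K4me3 (1.47 to 1.90%), against 35.6% for H3K4me2. At equal Control width, H3K4me1 and H3K4me2 came close or changed order. At 2000 to 2999 bp, 64.5% of 543 H3K4me1 peaks (60.3 to 68.4%) and 65.1% of H3K4me2 peaks were split, while 2.11% of 3454 H3K4me3 peaks were. Outer edges took 35.8% of the length of that class for H3K4me1 and 36.6% for H3K4me2. At 3000 to 3999 bp, 93.8% (87.7 to 96.9%) of 112 H3K4me1 peaks and 85.7% (83.4 to 87.7%) of 1046 H3K4me2 peaks were split, and at 1000 to 1499 bp 15.7 and 8.07%. Over all Control peaks with a counterpart, centre and edge coverage differed by 31.1 percentage points for H3K4me1, 67.2 for H3K4me2 and 11.0 for H3K4me3. Control width was not matched for these 3 values. These differences between marks have 1 library on each side and were not tested.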

How the data were processed

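Peak lists of 6 samples were used, 1 for each mark under each treatment; input and H3 libraries were not used here. MACS run in Galaxy made the peaks, per the file headers, and each list belongs to 1 library. The submitters' processing notes name Bowtie2, deepTools and mm9; for aligner and caller settings, the input and the read depth, these sources give nothing. The deposited score is the authors' value for each peak, and the headers do not say what it measures. Starts and ends, also as deposited by the authors, are the other values used, written 1-based.

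A peak counted as overlapping at 1 bp or more. Each Control peak was divided into bases covered by S2101 peaks, outer edges and inner gaps. Base-level overlap with other marks was exact. The interval functions were tested on simulated data with known trims and gaps and gave the same counts as bedtools 2.31.1. Alternatives were a score of 200 or more, lists of equal length, autosomes only, joining of peaks within 500 bp, Control peaks of 1000 bp or more, and a 50% overlap. Extension of S2101 peaks, leaving out narrow S2101 peaks and other joining distances were chosen after seeing the data. Named regions are 5 per rule: most pieces, strongest narrowing at 3000 bp or more, widest with a ratio of 0.9 or more, largest gaps, widest without S2101 peak, S2101 peaks over the most Control peaks, and largest widening at 500 bp or more. The members and rules were chosen with earlier results of these data known. Gene lists were not used, as no annotation of mm9 was at hand. Computation ran in Python 3.11.15 with pandas 2.3.3 and numpy 2.4.6, with scipy 1.17.1 for intervals and matplotlib 3.10.9 for plots.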

Additional observations from a re-analysis of the deposited data

How the results depend on the processing

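Under all alternatives run, both length and width ratios stayed under 1, and the differences between centre and edge and between bases under and outside H3K4me3 stayed above 0. The other 4 values cannot be negative and have no direction. No paired analysis was possible because each mark and treatment has 1 sample. The share of split peaks moved most, from 26.4% to 16.9% with scores of 200 or more, 22.1% with lists of equal length, 5.15% with S2101 peaks joined within 500 bp, 13.7% with both lists joined, 37.4% for Control peaks of 1000 bp or more, 25.8% with 50% overlap, 15.9% with S2101 peaks extended, 23.1% without narrow S2101 peaks, and 19.0, 14.3 and 0.891% with joining at 100, 200 and 1000 bp. The median inner gap of 166 bp was 199, 179, 673, 746, 196 and 183 bp with scores of 200 or more, equal lengths, S2101 peaks joined, both joined, extended and without narrow peaks; joining at 500 bp removes the shorter gaps by construction. The score cut kept a smaller part of the S2101 list than of the Control list, so it was not an even cut. With scores of 200 or more, the covered length ratio was 0.417, the width ratio 0.509, the retained length 40.9%, the outer-edge share 58.5% and the difference between centre and edge 70.0 points. With S2101 peaks joined, these were 0.507, 0.572, 49.2%, 64.9% and 69.6 points. With S2101 peaks extended by 90 bp they were 0.583, 0.684, 56.0%, 58.6% and 61.5 points. With both lists joined the width ratio was 0.5995 and the difference between centre and edge 63.7 points. For Control peaks of 1000 bp or more the width ratio was 0.489, the retained length 49.3% and the outer-edge share 70.7%, and with equal lengths that share was 58.6%. Movement was judged against the interval of a share or median, or for lengths against the SD over autosomes; in all, 38 values moved and 33 did not. Depth is unknown and limits every width and count.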

Other observations

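Where H3K4me2 reached past a single Control peak with S2101, which happened for 1019 of 24444 S2101 peaks (4.17%), it did so by a median of 51 bp. The 964 S2101 peaks that overlapped no Control peak had a median width of 317 bp and lay at a median of 4622 bp from the nearest Control peak, 366 of them within 1 kb. Of these 964, 338 (35.1%) overlapped S2101 H3K4me3, 252 (26.1%) Control H3K4me3, 317 (32.9%) Control H3K4me1 and 154 (16.0%) S2101 H3K4me1. Joining of neighbouring Control peaks under a single S2101 peak occurred 56 times, against 5670 Control peaks split. The widest such S2101 peak, on chromosome 2 (152560976 to 152562897, 1922 bp), linked Control peaks of 1573 and 4062 bp. The next were on chromosome 8 (87954616 to 87956536, 1921 bp), chromosome 6 (53237174 to 53238978, 1805 bp), chromosome 2 again (153270374 to 153272155, 1782 bp) and chromosome 19 (56796556 to 56798227, 1672 bp). The largest widening was on chromosome 7 (16551715 to 16552348), where a Control peak of 634 bp with a score of 113.89 was matched by an S2101 peak of 852 bp. The next were on chromosome 11 (105224211 to 105224820), chromosome 2 (147003540 to 147004308), chromosome 7 (126138769 to 126139287) and chromosome 19 (53631727 to 53632261), with ratios of 1.31, 1.31, 1.16 and 1.15.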
